A study of Mus musculus with 9 samples.

Results

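PPARγ binding at its own gene, Pparg, was described across the day in interscapular brown adipose tissue (iBAT). The locus was taken as the 190 kb of chromosome 6 from 115330000 to 115520000 (mm10), which hold Pparg with its flanks, and every peak whose centre lies there was included, 41 of the 66066 peaks in the count table. The peaks are numbered 1 to 41 along the forward strand, which is also the direction in which Pparg is transcribed. The rule used position only and no measured value.

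PPARγ, a nuclear receptor, pairs with the retinoid X receptor on DNA and is required for the formation and upkeep of fat cells. Its gene is transcribed from separate promoters: PPARγ1 is found in many tissues, while PPARγ2, which carries additional amino acids at its N-terminus, is largely restricted to adipocytes. PPARγ binds direct repeats of a hexamer spaced by a single base (DR1), and C/EBP proteins are known activators of the PPARγ2 promoter.

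The tissue for ChIP-sequencing of PPARγ came from male mice of the strain C57BL/6J, 10 weeks old, with no transgene or deletion named in the labels. Tissue was collected at Zeitgeber time (ZT) 0, 3, 6, 9, 12, 15, 18 and 21, where ZT0 is the start of the light phase and ZT12 that of the dark phase. According to the labels, 8 mice were pooled per time point into 250 to 350 mg of tissue, chromatin was incubated with 8 μg of antibody, and 1 library was sequenced. The study's methods on ChIP-sequencing give 8 mice per pool as well, while their section on animals gives another number per time point. Where 4 values are given for the light phase they belong, in order, to ZT0, ZT3, ZT6 and ZT9, and the 4 of the dark phase to ZT12, ZT15, ZT18 and ZT21. The groups differ in time only and no time point is replicated, so the spread between mice or preparations cannot be estimated and a change in time cannot be told apart from a difference between single pools. The input library of ZT12 was not analysed here. Whole tissue was used, so fewer cells with a bound site and less binding per cell cannot be told apart.

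The libraries held 29572225 to 34264812 reads in peaks, and TMM factors ranged from 0.959 at ZT6 to 1.04 at ZT18. The densest 10% of all peaks took 33.9% of the reads at ZT15 and 38.8% at ZT6, a shift between strong and weak sites that touches each comparison of these times. Peaks lay within 10 kb of a start site for 3 of 3 adipocyte markers. The same held for 6 of 6 brown adipocyte markers (Ucp1, Cidea, Ppargc1a, Dio2, Elovl3 and Cox7a1). Of the other lists, 1 of 3 skeletal muscle genes, 1 of 2 hepatocyte genes and 2 of 2 endothelial genes had such a peak. Of the leukocyte genes, 0 of 2 had one. The share of all genes with such a peak is not given here, so these counts are no check of the tissue. The densest peak per gene ranged from 274 normalized counts per kb at Elovl3 to 871 at Ucp1 among the brown adipocyte markers. It was 617 at Apoa2 (hepatocyte), 342 at Acta1 (skeletal muscle), 222 at Cdh5 and 185 at Pecam1 (endothelial), so the levels of these lists overlap those of the brown adipocyte list. The part of cell composition in the results was not tested.

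In RefSeq's annotation of GRCm38.p6, the assembly behind mm10, Pparg has 4 curated start sites. Transcripts of PPARγ1 start at 115360951, 115361144 and 115362349, that of PPARγ2 starts at 115422066, and all end at 115490401. The 250 bases before the last PPARγ1 start and before the PPARγ2 start are shown because peaks 3 and 16 lie across them. The PPARγ1 stretch lies in the first intron of the PPARγ1 transcripts that start earlier. Capitals mark matches to the C/EBP-type motif TTGCNNAA on either strand.
PPARγ1 promoter, chr6:115362099-115362348, plus strand: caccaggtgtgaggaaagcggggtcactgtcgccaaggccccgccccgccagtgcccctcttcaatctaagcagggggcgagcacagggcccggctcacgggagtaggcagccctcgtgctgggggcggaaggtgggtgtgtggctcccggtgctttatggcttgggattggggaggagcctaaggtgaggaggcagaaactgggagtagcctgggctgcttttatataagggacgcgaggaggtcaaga
PPARγ2 promoter, chr6:115421816-115422065, plus strand: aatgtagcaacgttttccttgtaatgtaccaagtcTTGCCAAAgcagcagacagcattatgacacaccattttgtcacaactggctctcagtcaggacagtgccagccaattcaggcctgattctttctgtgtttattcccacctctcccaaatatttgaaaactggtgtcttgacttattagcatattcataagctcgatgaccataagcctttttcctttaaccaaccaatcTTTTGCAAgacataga
The PPARγ1 stretch has a GC content of 63.6% and none of the 4 motifs searched, which were DR1 (AGGTCANAGGTCA with up to 2 mismatches among its 12 fixed bases), the E-box CACGTG, the D-box TTANGTAA and TTGCNNAA. The PPARγ2 stretch has a GC content of 40.8% and 2 matches to TTGCNNAA. The 250 bases before the start at 115361144, most of which are transcribed in the isoform that starts at 115360951, have a GC content of 82.4% and none of the motifs. Of 32851 RefSeq promoters, 9.56% held that motif in the same 250 bases, 6.02% held the E-box, 2.06% the D-box and 3.24% a DR1 with up to 2 mismatches.

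DR1-like elements of the locus are shown because this is the element that PPARγ is known to bind. No member held an exact DR1. With 1 mismatch allowed, 3 elements were found in 2 members, peaks 9 and 21. The element of peak 16 nearest the PPARγ2 start and that of peak 40, the strongest peak, have 2 mismatches. In each line the 13 bases in capitals are the element and 9 bases of flank stand on either side.
Peak 9, chr6:115392875-115392905, plus strand: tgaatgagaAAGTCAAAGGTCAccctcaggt
Peak 9, chr6:115392997-115393027, plus strand: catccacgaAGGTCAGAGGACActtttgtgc
Peak 16, chr6:115423915-115423945, minus strand: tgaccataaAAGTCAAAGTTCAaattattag
Peak 21, chr6:115449595-115449625, plus strand: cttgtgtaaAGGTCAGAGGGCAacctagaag
Peak 40, chr6:115511422-115511452, plus strand: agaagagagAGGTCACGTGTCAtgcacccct
The element in peak 40 overlaps an E-box, the letters CACGTG at 115511435 to 115511440, which is read by clock proteins such as BMAL1 and CLOCK. Whole peaks are long here, so shares were compared over the 300 bases around each centre. There, a DR1 with up to 2 mismatches stood in 4 of 41 members (9.76%) and in 9.68% of 66059 peaks searched, and one with at most 1 mismatch in 1 member (2.44%) and in 2.05% of peaks. The C/EBP-type motif stood in 10 members (24.4%) against 19.7% of peaks, the D-box in 3 (7.32%) against 4.28% and the E-box in 1 (2.44%) against 5.55%. Over whole peaks, an E-box was found in 6 members, peaks 5, 16, 17, 38, 40 and 41. Per length, E-boxes were rarer here, with 0.0632 per kb in members against 0.179 per kb in the other peaks. All motifs given here are matches of letters and not shown sites of binding.

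Peaks crowded the locus. They covered 50.0% of its bases, with a median width of 1636 bases against 813 bases over all peaks. When chromosomes 1 to 19 and X were divided into stretches of 190 kb, 2 of the 9240 stretches with a peak held at least 41 peaks and 21 held at least as many reads, while the median stretch held 5 peaks. These stretches were not centred on genes, as the Pparg window is, so the ranks are a description. The equal stretches just before and just after the window held 7 and 10 peaks. Most members were weak per length: the median of 168 normalized counts per kb lay under the 268 of all peaks, and 8 of 41 members were above the latter.

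Of the 41 peaks, 2 lay upstream of the gene, 33 had their centre in an intron of it, none in an exon, and 6 lay downstream. The signal was uneven along the gene. The 6 downstream peaks held 39.9% of the reads of the locus in 15424 bases, or 848 normalized counts per kb. The 13 peaks from the PPARγ1 start to just before the PPARγ2 start held 21.7% in 32545 bases, at 218 per kb. The 20 peaks from there to the gene end held 35.1%, at 263 per kb, and the upstream pair held 3.29%. Peaks 40, 16, 38 and 41 alone carried 53.3% of the reads. By the nearest curated start site, 33 of the peaks, numbers 1 to 33, were assigned to Pparg. Which gene the downstream peaks act on was not tested.

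**Figure D1:**
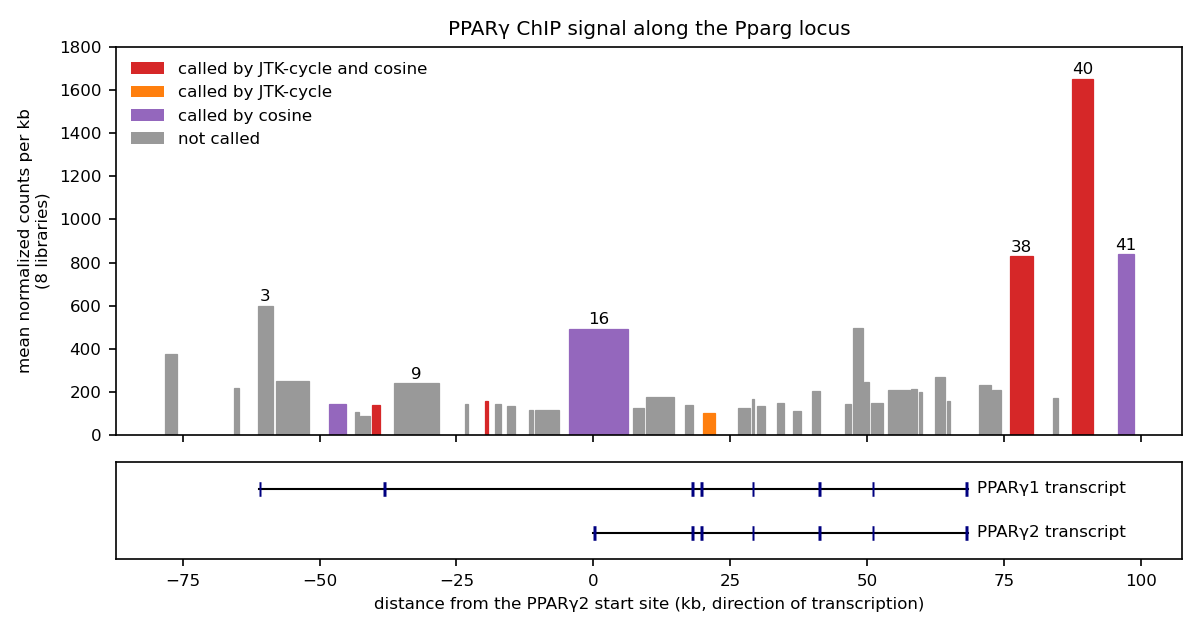
Mean normalized counts per kb over the 8 libraries (y axis) of each of the 41 peaks, drawn at their width, against the distance in kb from the PPARγ2 start site (x axis), with the exons of a PPARγ1 and the PPARγ2 transcript beneath and colours for calls of oscillation. Peaks 38, 40 and 41, downstream of the gene, stand above all peaks in the gene.

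Summed over the 41 peaks, the signal was highest at ZT6 and lowest at ZT18. The sum was 31114, 33275, 38233 and 34121 normalized counts in the light phase and 34879, 31783, 28950 and 29617 in the dark phase. The highest is 1.32 times the lowest, with a counting interval of 1.30 to 1.34, which covers counting error only. The ratio was 1.22 when libraries were scaled by their totals alone and 1.19 after cyclic loess, a normalization that removes differences tied to signal strength.

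The sums over groups of peaks along the gene differed in their course. The downstream sum was 13017, 13379, 16739 and 14386 normalized counts in the light phase and 12975, 11806, 10414 and 11860 in the dark phase. Its highest value, at ZT6, was 1.61 times its lowest, at ZT18. The sum over the peaks between the start sites was highest at ZT12 with 8142 and lowest at ZT0 with 6253, a ratio of 1.30. From the PPARγ2 start to the gene end the highest was 12993 at ZT6 and the lowest 10433 at ZT18, a ratio of 1.25. Strong peaks weigh most in these sums. Downstream, peaks 38, 40 and 41 held 10.7%, 18.9% and 7.39% of the reads of the locus. Peaks 36, 37 and 39 there were highest at ZT15, ZT15 and ZT9. Peak 16 held 16.3% of the reads of the locus. Of the 20 peaks from the PPARγ2 start to the gene end, 7 were highest at ZT6, 6 at ZT12 and 3 at ZT15. The sums were not tested, since each rests on 1 library per time point.

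Oscillation was tested for each peak in a fit over all 66066 peaks, in 2 ways. JTK-cycle, which asks whether the order of the 8 values follows a rhythm of 21 or 24 h and has an exact null distribution, called 5 of 41 members (12.2%) at an adjusted P under 0.05, against a background of 11.6% of all peaks. An edgeR fit of a 24-h cosine called 7 of 41 (17.1%) at a Benjamini-Hochberg adjusted P under 0.05, against 13.4% of all peaks. Both counts depended on the processing. JTK-cycle called 1 member with cyclic loess (2.44%, against 7.58% of all peaks) and 9 without the library of ZT9 (22.0%, against 13.3%), and the edgeR cosine called 2 without that of ZT18 (4.88%, against 4.64%). The 5 are peaks 8, 11, 20, 38 and 40, the 7 are peaks 5, 8, 11, 16, 38, 40 and 41, and 4 peaks were called by both. The adjusted P of JTK-cycle is corrected over the 15 combinations of period and phase within a peak and not over peaks. After Benjamini-Hochberg adjustment over all peaks, no peak of the table was under 0.05 by JTK-cycle. The lowest adjusted value was 0.0968 in the table and 0.128 at the locus. In the edgeR cosine, a separate test, 15 of 41 members and 20687 of 66066 peaks had an unadjusted P under 0.05.

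Peak 3 (115360798 to 115363594) covers the 3 start sites of PPARγ1. Its signal was 1646, 1709, 1638 and 1577 normalized counts in the light phase and 1960, 1799, 1580 and 1516 in the dark phase. It was thus higher at the start of the dark phase than at the other times, by 1.29 times from lowest to highest, and was called by neither test (adjusted P = 1.00, JTK-cycle, exact, and 0.456, edgeR). With cyclic loess the signal of peak 3 was highest at ZT15 and lowest at ZT6, by 1.37 times.

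Peak 16 (115417623 to 115428461) covers the PPARγ2 start and is the widest of the locus, with 10839 bases. Its signal was 5395, 5381, 6229 and 5646 normalized counts in the light phase and 5964, 4800, 4577 and 4796 in the dark phase. The 3 values from ZT15 to ZT21 are all below the 5 values from ZT0 to ZT12. The 95% Wilson interval at ZT6 was 6078 to 6383 and that at ZT18 4444 to 4714, and the ratio was 1.36. With cyclic loess the ratio was 1.16, between ZT6 and ZT0, and the exact JTK-cycle P was 1.00. The cosine peaked at 7.01 h (adjusted P = 0.0251, edgeR), while JTK-cycle did not pass (adjusted P = 0.0826, exact). The edgeR call was lost when the library of ZT6, ZT15, ZT18 or ZT21 was left out, with adjusted P values from 0.0183 to 0.148 over the 8 fits, and it was lost with library totals (adjusted P = 0.0652, edgeR).

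The 2 promoter peaks did not keep a fixed ratio. The signal of peak 3 was 0.263 times that of peak 16 at ZT6, the lowest ratio, and 0.375 times at ZT15, the highest, and the others lay between 0.279 and 0.345. A ratio within a library does not depend on its scaling, but it says only that the peaks changed unequally.

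Peak 40 (115509474 to 115513211), the strongest of the locus, is centred 20.9 kb after the gene end and 89.3 kb after the PPARγ2 start, and holds the DR1-like element with the E-box inside it shown above. Its signal was 6229, 6629, 8294 and 6679 normalized counts in the light phase and 6013, 5136, 4884 and 5571 in the dark phase. It is higher in every library of the light phase than in every library from ZT12 to ZT21, and the highest is 1.70 times the lowest. The Wilson intervals were 8120 to 8471 at ZT6 and 4747 to 5026 at ZT18. Both tests called it (adjusted P = 0.00595, JTK-cycle, exact, with a peak time of 6 h, and adjusted P = 0.00206, edgeR, with a cosine peak at 5.60 h). Per kb it exceeded 99.9% of all peaks. Both calls were kept with each library left out in turn, with adjusted P values of 0.00138 to 0.0249 in edgeR. With cyclic loess the exact JTK-cycle P was 0.212 and the highest value, still at ZT6, was 1.46 times the lowest, now at ZT12.

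Peak 38 (115498111 to 115502335) is centred 9.82 kb after the gene end. Its signal was 3417, 3456, 4380 and 4081 normalized counts in the light phase and 3628, 3455, 2632 and 2952 in the dark phase. ZT6 and ZT9 stood highest, ZT18 and ZT21 lowest, and the ratio was 1.66. It was called by both tests (adjusted P = 0.0260, JTK-cycle, exact, and 0.00614, edgeR, with a cosine peak at 7.42 h). The JTK-cycle call was not made under any of the 4 other normalizations, with an adjusted P of 0.212 with library totals and 0.467 with cyclic loess (exact). The edgeR call was lost without ZT18 (adjusted P = 0.0545).

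Peak 41 (115517779 to 115520665) is the last of the locus. Its signal was 2566, 2467, 2996 and 2601 normalized counts in the light phase and 2297, 2129, 1979 and 2313 in the dark phase. As in peak 40, ZT6 was highest and ZT18 lowest, with a ratio of 1.51. The edgeR cosine called it, with a peak at 5.16 h (adjusted P = 0.0185), and JTK-cycle did not (adjusted P = 0.0826, exact). The edgeR call was lost when ZT6, ZT15 or ZT18 was left out, with an adjusted P of up to 0.132. With cyclic loess the exact JTK-cycle P was 0.915 and the highest value, still at ZT6, was 1.34 times the lowest, now at ZT12.

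**Figure D2:**
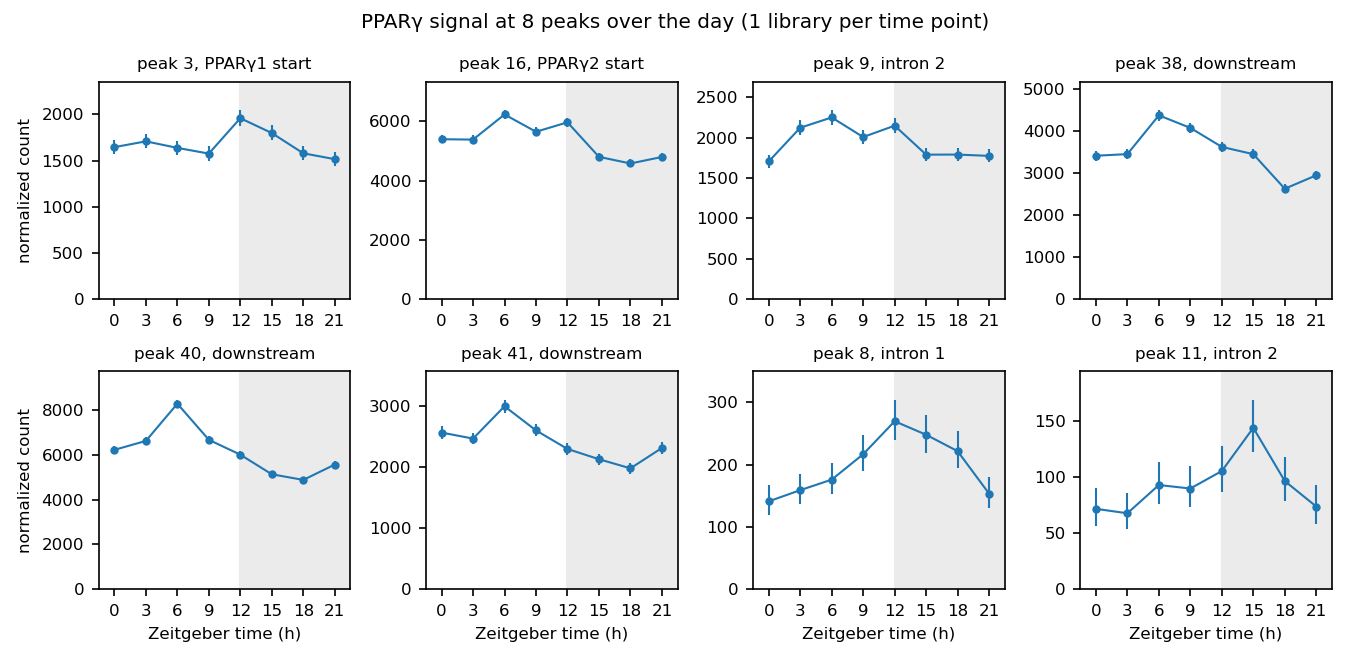
Normalized counts (y axis) at each Zeitgeber time in h (x axis) for the peaks at both start sites and 6 further peaks, with points for the single library of each time, bars for 95% Wilson intervals (counting error only) and grey for the dark phase. Peaks 40, 38 and 41 are highest at ZT6, while peaks 8 and 11 are highest at ZT12 and ZT15.

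Between the start sites, the called peaks were peaks 5, 8 and 11, which had means of 445, 198 and 92.5 normalized counts and were highest at ZT12 or ZT15. Peak 8 (115381610 to 115383048), in intron 1, had 141, 159, 176 and 217 normalized counts in the light phase and 270, 248, 222 and 153 in the dark phase. It rose in order from ZT0 to ZT12 and fell after it, by a ratio of 1.91, with Wilson intervals of 119 to 167 at ZT0 and 239 to 304 at ZT12. Both tests called it (adjusted P = 0.0260, JTK-cycle, exact, and 0.00695, edgeR, with a cosine peak at 13.0 h). It was called by JTK-cycle under all 4 other normalizations, cyclic loess included, and by edgeR with each library left out, while the JTK-cycle call held in 4 of the 8 fits without a library.

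Peak 11 (115402286 to 115402863), in intron 2, had 71.5, 67.6, 92.7 and 89.6 normalized counts in the light phase and 105, 144, 96.3 and 73.6 in the dark phase. ZT15 stood above all others, and the ratio of 2.13 was the second largest of the locus. It was called by both tests (adjusted P = 0.0260, JTK-cycle, exact, and 0.0428, edgeR). With each library left out, JTK-cycle called it in 3 of 8 fits and edgeR in none. With cyclic loess the exact JTK-cycle P was 0.467, while the ratio was 2.05, again highest at ZT15.

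Peak 5 (115373788 to 115376836), in intron 1, had 366, 423, 392 and 430 normalized counts in the light phase and 541, 585, 459 and 361 in the dark phase. ZT12 and ZT15 were highest, and only edgeR called it (adjusted P = 0.0416), a call lost when the library of ZT0, ZT6, ZT12, ZT15, ZT18 or ZT21 was left out. Peak 20 (115442046 to 115444227), in intron 4, had 194, 197, 232 and 213 in the light phase and 259, 257, 233 and 202 in the dark phase. It was called only by JTK-cycle (adjusted P = 0.0260, exact, against 0.192 in edgeR), in 3 of the 8 fits without a library and in 2 of the 4 other normalizations.

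The other peaks given in full were called by neither test. Peak 9 (115385668 to 115393792), in intron 2, which holds 2 of the 3 DR1-like elements with 1 mismatch, had 1706, 2123, 2251 and 2008 normalized counts in the light phase and 2149, 1790, 1791 and 1775 in the dark phase. The times from ZT3 to ZT12 lay above the rest (adjusted P = 0.915, JTK-cycle, exact, and 0.0644, edgeR). Peak 28 (115469413 to 115471308), in intron 6, had 885, 1078, 1060 and 1010 in the light phase and 945, 907, 782 and 891 in the dark phase. Peak 10 (115398585 to 115399202), in intron 2, had the largest ratio of the locus, 2.26, between 54.1 at ZT0 and 123 at ZT12. Its other values were 72.3 at ZT3, 101 at ZT6, 81.7 at ZT9, 107 at ZT15, 77.6 at ZT18 and 103 at ZT21, so they did not follow each other smoothly, and the Wilson intervals of the extremes were 41.4 to 70.8 and 103 to 147.

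**Figure D3:**
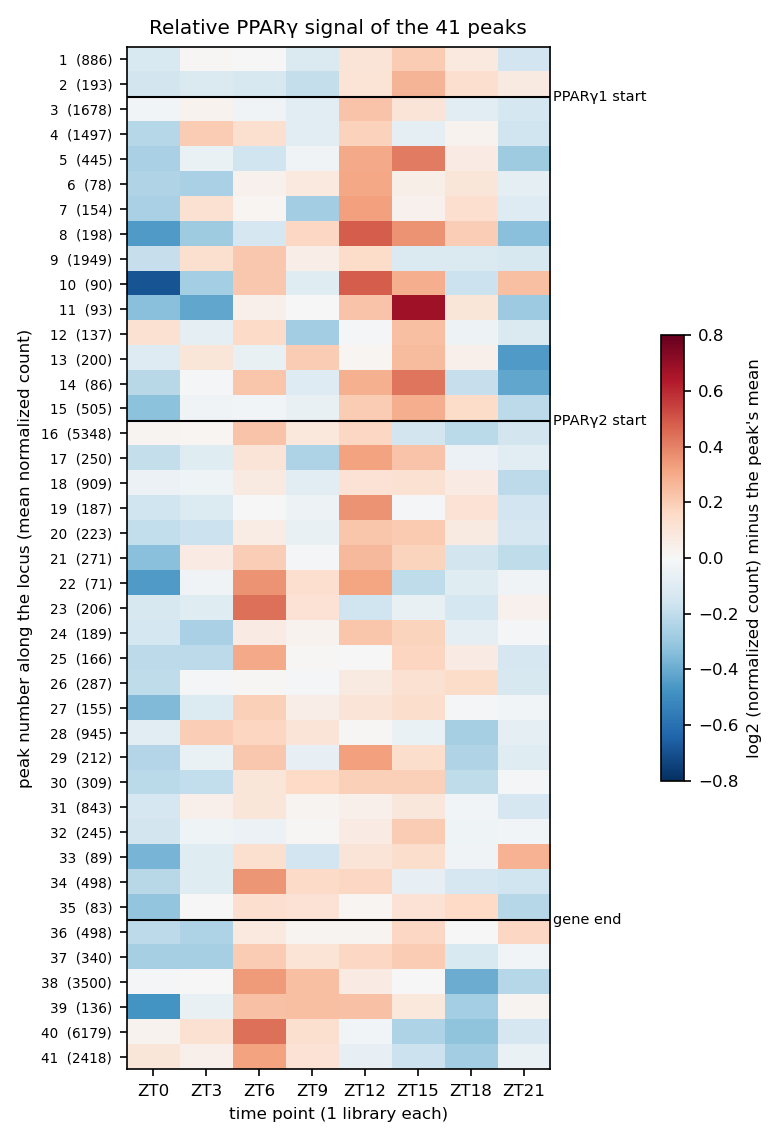
Log2 normalized counts of the 41 peaks (rows, in order along the locus, with the mean normalized count in brackets) at the 8 time points (columns), relative to each peak's own mean, red for higher and blue for lower. Most rows are blue at ZT0 and red at ZT12 or ZT15, while peaks 38, 40 and 41 are red at ZT6 and blue at ZT18.

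The remaining 29 peaks are given by place, lowest and highest time point. Upstream of the gene, peak 1 (115343768 to 115346125) ranged from 794 normalized counts at ZT21 to 1017 at ZT15 and peak 2 (115356424 to 115357314) from 167 at ZT9 to 231 at ZT15. In intron 1 of PPARγ1, peak 4 (115364178 to 115370157) ranged from 1271 at ZT0 to 1715 at ZT3, peak 6 (115378530 to 115379250) from 64.7 at ZT3 to 96.0 at ZT12, and peak 7 (115379495 to 115381214) from 126 at ZT9 to 192.0 at ZT12. Apart from peak 4, these are highest at ZT12 or ZT15.

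In intron 2 before the PPARγ2 start, peak 12 (115404146 to 115405107) ranged from 112 at ZT9 to 161 at ZT15 and peak 13 (115406368 to 115407838) from 145 at ZT21 to 236 at ZT15. Peak 14 (115410277 to 115411025) ranged from 63.3 at ZT21 to 114 at ZT15 and peak 15 (115411384 to 115415719) from 399 at ZT0 to 613 at ZT15. All 4 of these were highest at ZT15. With cyclic loess peak 12 was highest at ZT0, peak 13 at ZT9, peak 14 at ZT12 and peak 15 at ZT15.

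Past the PPARγ2 start in the same intron, peak 17 (115429324 to 115431339) ranged from 209 at ZT9 to 310 at ZT12, peak 18 (115431662 to 115436762) from 785 at ZT21 to 988 at ZT15, and peak 19 (115438844 to 115440202) from 166 at ZT0 to 239 at ZT12. In intron 4, peak 21 (115448483 to 115450652), which holds a DR1-like element shown above, ranged from 212 at ZT0 to 322 at ZT12. These again were highest at ZT12 or ZT15.

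In intron 5, the highest time was less uniform. Peak 22 (115450945 to 115451366) ranged from 51.1 at ZT0 to 89.8 at ZT6, peak 23 (115451905 to 115453440) from 183 at ZT12 to 277 at ZT6, and peak 25 (115458493 to 115459956) from 143 at ZT3 to 204 at ZT6. Peak 24 (115455623 to 115456909) ranged from 157 at ZT3 to 220 at ZT12 and peak 26 (115462022 to 115463419) from 249 at ZT0 to 317 at ZT18. In intron 6, peak 27 (115468038 to 115469118) ranged from 121 at ZT0 to 176 at ZT6 and peak 29 (115471508 to 115472364) from 178 at ZT18 to 263 at ZT12.

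In intron 7, peak 30 (115472820 to 115474875) ranged from 264 at ZT0 to 350.1 at ZT15 and peak 31 (115475755 to 115479830), the flattest of the locus with a ratio of 1.17, from 766 at ZT21 to 898 at ZT6. Peak 32 (115480041 to 115481190) ranged from 221 at ZT0 to 282 at ZT15 and peak 33 (115481536 to 115481987) from 68.4 at ZT0 to 107 at ZT21. Peak 34 (115484393 to 115486237) ranged from 424 at ZT0 to 632 at ZT6 and peak 35 (115486551 to 115487069) from 66.4 at ZT0 to 92.1 at ZT18. Here 5 of the 6 peaks were lowest at ZT0. With cyclic loess peak 30 was lowest at ZT3, peak 34 at ZT21 and the others at ZT0.

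Downstream of the gene, peak 36 (115492523 to 115494662) ranged from 418 at ZT3 to 557 at ZT15, peak 37 (115494854 to 115496489) from 280 at ZT0 to 388 at ZT15, and peak 39 (115506039 to 115506836) from 96.0 at ZT0 to 159 at ZT9. Wilson intervals of a peak's extremes overlapped for 3 of all 41 peaks, peaks 6, 32 and 35, and not for the other 38. The intervals were computed for the members only, so the share over all peaks is not known. The extremes of 8 values are apart by selection, so these counts are no test of time or of counting error. The median ratio of highest to lowest was 1.46 at the locus and 1.52 over all peaks.

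The times of the highest signal are given for weak and strong members in turn. Of the 26 peaks with a mean under 400 normalized counts, a limit chosen after the values were seen, 18 were highest at ZT12 or ZT15 and 14 lowest at ZT0. Their summed signal was 3923, 4285, 4984 and 4630 in the light phase and 5263, 5230, 4536 and 4330 in the dark phase, which is highest at ZT12 and lowest at ZT0, by 1.34 times. Of the 15 peaks at or above the limit, 6 were highest at ZT12 or ZT15 and 4 lowest at ZT0. Their sum was 27191, 28990, 33249 and 29491 in the light phase and 29616, 26553, 24413 and 25286 in the dark phase, highest at ZT6 and lowest at ZT18, by 1.36 times. The sum of the 4 strongest of them was 17607, 17934, 21899 and 19006 in the light phase and 17902, 15520, 14072 and 15632 in the dark phase, highest at ZT6 and lowest at ZT18, by 1.56 times. After cyclic loess the weak sum remained highest at ZT12 and lowest at ZT0 (1.35 times), that of the 15 peaks was highest at ZT6 and lowest at ZT21 (1.19 times), and that of the 4 strongest was highest at ZT6 and lowest at ZT12 (1.25 times).

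Over all 41 peaks, 24 (58.5%) were highest at ZT12 or ZT15, as were 28.7% of all peaks of the table. With cyclic loess the numbers were 26 of 41 and 28.5%. ZT0 was the lowest time of 18 members (43.9%) and of 12.2% of all peaks, and of 17 members and 12.2% of peaks with cyclic loess. When all peaks were divided into 5 equal bins by counts per kb, in the least dense bin, 16 of 20 members and 36.3% of 13213 peaks were highest at ZT12 or ZT15. Neighbouring peaks of a locus share the libraries and were correlated, with a median Pearson r of 0.57 over the 8 libraries between neighbours and of 0.49 over all pairs of members, so these counts were not tested. In the stretches of equal length before and after the window, 4 of 7 and 6 of 10 peaks were highest at ZT12 or ZT15.

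The difference between ZT6 and ZT15, a pair of times chosen after the values were seen, followed the signal per kb. Log2 of ZT6 over ZT15 was above 0 in 18 members, and ran from -0.63 in peak 11 to 0.69 in peak 40. In the densest of the 5 bins of all peaks the median was 0.36 over 6 members and 0.19 over all peaks, and in the least dense bin it was -0.09 over 20 members and -0.15 over all peaks. Spearman's rho between counts per kb and this log2 ratio was 0.38 over the 41 members and 0.23 over all peaks, and 0.14 and 0.14 after cyclic loess. These are correlations across peaks of the same libraries and carry no P value. The share of reads in the densest peaks of each library moves the same way, and its part in the result was not tested.

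**Figure D4:**
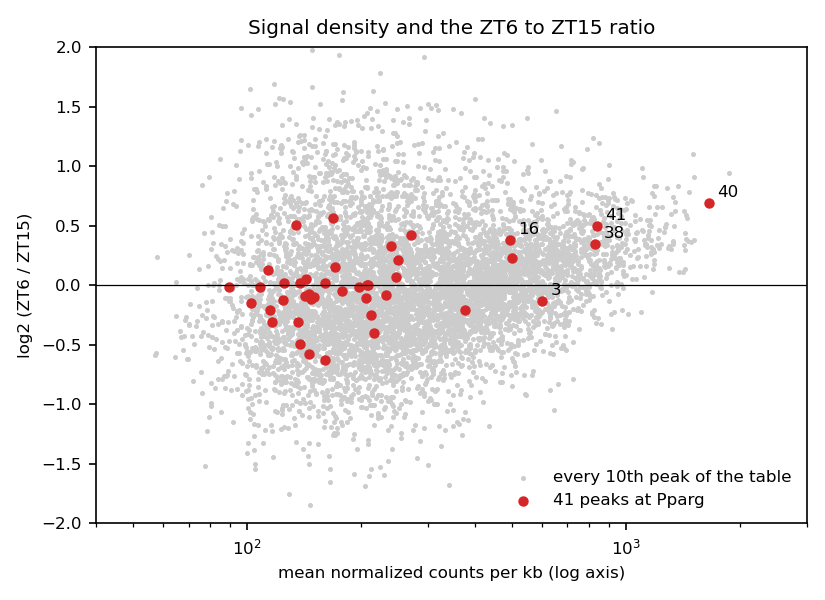
Log2 of the normalized count at ZT6 over that at ZT15 (y axis) against the mean normalized counts per kb (x axis, log scale), with the 41 peaks at Pparg in red and every 10th peak of the table in grey. The dense downstream peaks 38, 40 and 41 lie above 0, peak 3 at the PPARγ1 start lies below it, and most thin peaks lie near or below 0.

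Genes whose summed signal followed that of the Pparg locus most closely were found among 7223 genes with a mean of at least 1000 normalized counts over the peaks nearest their start sites. The 5 with the highest Pearson r of log2 sums over the 8 libraries were Crygs, a lens crystallin gene, with 5 peaks (r = 0.99), Acacb, an acetyl-CoA carboxylase of the mitochondrial membrane, with 9 peaks (r = 0.98), and Zfp36l2, an RNA-binding protein, with 21 (r = 0.98). They were followed by Tinagl1 with 8 peaks (r = 0.98) and Sh3glb1 with 8 (r = 0.98). The median r over all these genes was 0.21 and 21 genes were above 0.95, and among so many genes and 8 libraries high values are to be found by selection.

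Peaks at other genes of the PPARγ pathway were counted by role. The partners Rxra, Rxrb and Rxrg had 24 peaks, of which JTK-cycle called 3 (12.5%) and edgeR 3. The other PPARs, Ppara and Ppard, had 16 peaks, with 1 called by each test (6.25%). Upstream regulators of Pparg, 8 of 9 with peaks, had 147, of which JTK-cycle called 18 (12.2%) and edgeR 20 (13.6%). These included Cebpa, with 5 peaks of which 2 were called by JTK-cycle and a sum that was highest at ZT3 and lowest at ZT18, by 1.44 times, and Cebpb, with 3 peaks and a sum highest at ZT6 and lowest at ZT18, by 1.53 times. The other regulators had smaller ratios. Cebpd and Ebf2 were highest at ZT12 and lowest at ZT0 (1.35 and 1.18 times). Srebf1 was highest at ZT12 and lowest at ZT21 (1.18 times), and Zfp423 at ZT9 and ZT18 (1.13 times). Ebf1 and Nr3c1 were highest at ZT6 and lowest at ZT3 (1.11 and 1.12 times). Coregulators had 133 peaks at 8 of 9 genes, of which JTK-cycle called 13 (9.77%) and edgeR 18 (13.5%).

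Target genes, which encode proteins of lipid uptake, storage and thermogenesis, had 75 peaks at 9 of 9 genes. Of these peaks JTK-cycle called 19 (25.3%) and edgeR 18 (24.0%), against the 11.6% and 13.4% of all peaks. JTK-cycle called at least 1 peak at 8 of the 9 genes, but unevenly. It called 8 of 24 peaks at Lpl and 4 of 8 at Ucp1, against 1 of 26 at Cd36 and 0 of 3 at Cidec. Each target gene had a peak of at least 698 normalized counts per kb. In the densest of the 5 bins by counts per kb, JTK-cycle called 15.98% of all peaks. The targets were not compared with peaks of like density, so an excess particular to them was not tested. The sums of the target genes were highest at ZT6 for 8 of 9 genes. Among these were Lpl, which releases fatty acids from lipoproteins (1.41 times its lowest, at ZT18), and Angptl4, an inhibitor of that enzyme (1.63 times, at ZT15). Another was Pck1, an enzyme of glycerol phosphate synthesis (2.03 times, at ZT18). Ucp1, the uncoupling protein of brown fat, was highest at ZT9 and lowest at ZT18 (1.81 times). Of all single peaks of the table, 17.4% were highest at ZT6, and 29.2% in the densest of the 5 bins by counts per kb. The share of all genes with a sum highest at ZT6 is not given here, so ZT6 cannot be called particular to the targets. At Pparg, the sum of the 4 strongest peaks was highest at ZT6 as well, while that of the 26 weak peaks was highest at ZT12.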

How the data were processed

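The deposited values are counts: whole numbers of reads per peak and library, which the authors did not normalize. According to the study's methods and the submitters' processing notes, reads were mapped to mm10 with BWA 0.7.17, peaks were called with MACS2 2.1.2, those under a false discovery rate of 0.05 in 6 or more libraries were retained, and reads were counted with HTSeq 1.99.2. Handling of duplicate reads is not given in the sources used here. All columns of the table were matched to a sample by name. Each peak's count was divided by its library's total and TMM factor (edgeR 4.0.16, R 4.3.3) and multiplied by the median total to give normalized counts.

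Oscillation was tested over all 66066 peaks by JTK-cycle, written anew in Python 3.11.15 since the original package was not installed. This version called 7686 of the peaks, fewer than the study reports, and the cause of that was not tested. The second test was edgeR's quasi-likelihood test (glmQLFit and glmQLFTest) of a 24-h cosine, in which departures from the cosine are the only spread (common dispersion 0.0116). Tested on 5000 simulated peaks whose means were drawn from the real table, 200 of them given a 24-h cosine of 0.5 relative amplitude, JTK-cycle recovered 80.0% and called 1.65% of flat peaks, and edgeR recovered 100% and called 0.229%. The members varied less than this cosine, with a median ratio of highest to lowest of 1.46 and a largest of 2.26. Recovery at amplitudes below 0.5 was not tested, so members without a call are not shown to be flat. Wilson intervals at 95% were taken from each count and its library total. The interval of the ratio of sums was taken from the Poisson error of both sums. They cover counting error only. DESeq2 1.42.0 and limma 3.58.1 (cyclic loess) served for alternatives.

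Places and sequences come from RefSeq's GRCm38.p6. Introns are numbered in the PPARγ1 transcript, by the centre of the peak. Values at all times are given for peaks over a Pparg start, called peaks, the 5 strongest, the 5 densest and the 3 with the largest ratio of highest to lowest time. The members, gene lists and motifs were chosen with earlier results of these data known.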

Additional observations from a re-analysis of the deposited data

How the results depend on the processing

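Each of the 3 results on the locus was recomputed with other processing. JTK-cycle called 5 members. It called 3 with upper-quartile factors (7.32%, against 11.7% of all peaks) and 1 with cyclic loess (2.44%, against 7.58%). When only the peaks nearest a Pparg start site were counted it called 3, and at a threshold of 0.01 it called 1. With each library left out it called 3 to 9. The fewest were without ZT0 (7.32%, against 13.0% of all peaks) or ZT15 (7.32%, against 11.2%), and the most without ZT9 (22.0%, against 13.3%). With library totals, DESeq2 size factors, a period of 24 h only or a mean count of at least 100 the number stayed within 1.5 times. The share was 12.2% with library totals, against 12.3% of all peaks, and 9.76% with DESeq2 size factors, against 11.7%. With a period of 24 h only it was 17.1%, against 15.0%. The edgeR cosine called 7 members, 3 at a threshold of 0.01, 4 of the peaks nearest a Pparg start site, and 2 to 8 with each library left out, with the fewest without ZT18 (2, or 4.88%, against 4.64% of all peaks), ZT15 (3, or 7.32%, against 5.65%), ZT6 (3, or 7.32%, against 6.48%) and ZT21 (4, or 9.76%, against 13.1%). It called 6 with library totals (14.6%, against 13.5% of all peaks), and 7 with DESeq2 size factors or upper-quartile factors (17.1%, against 13.1% for each). With a mean count of at least 100 it called 6 (17.6%, against 15.0%), and DESeq2's likelihood ratio test called 7 (17.1%, against 15.4%). The edgeR cosine was not run with cyclic loess. For neither test is the share of all peaks at the threshold of 0.01 given here. The ratio of the highest to the lowest sum of the locus, 1.32, was 1.22 with library totals, 1.23 over the peaks nearest a Pparg start site, 1.19 with cyclic loess, which was added after seeing the data, and 1.20 to 1.32 with each library left out, the lowest without ZT6. The cause of these differences was not tested, except that the stricter threshold and the smaller set of peaks lower a count by construction. No paired analysis was possible because each time point has 1 library. Counts went down to 50 in the weakest peaks, and which size of change could be called there was not tested.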
